A study of Arabidopsis thaliana with 4 samples.

Results

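KNOLLE and 7 further genes of plant cytokinesis that encode no kinesin were followed through the root tip of Arabidopsis thaliana seedlings that overexpress the transcription factor gene SCL28. The genes were chosen by locus: KNOLLE (AT1G08560), SNAP33 (AT5G61210), NPSN11 (AT2G35190), KEULE (AT1G12360), MAP65-3 (AT5G51600), EDE1 (AT2G44190), RUNKEL (AT5G18700) and TANGLED (AT3G05330). They are 8 of the 26822 gene lines used, and all 8 were among the 18087 lines with a mean of at least 1 FPKM that were tested. Both groups were Col-0 seedlings, 5 d old, grown on 1/2 MS agar at 22 °C in constant light. WT is the unmodified genotype with 2 libraries, and SCL28-OX is the overexpressing line labelled #10, also with 2 libraries. SCL28-OX is thus 1 line, and the sources used here do not give the promoter of its transgene. The tissue label is root tip, but RNA extraction is described for roots. Nothing in the labels tells whether the replicate libraries are separate cultures or plants, and p-values below cover the spread between them only, technical or not.

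Plant cells divide from the inside out. Golgi-derived vesicles travel along the microtubules of the phragmoplast and fuse at its midline into a cell plate, which grows outward until it meets the parental wall. Fusion is driven by SNARE proteins, in which a syntaxin, further Q-SNAREs and an R-SNARE zip together between membranes while a Sec1/Munc18 protein holds the syntaxin ready. KNOLLE, made in dividing cells, is the syntaxin of the cell plate, SNAP33 and NPSN11 are Q-SNARE partners of it, and KEULE is its Sec1/Munc18 protein. MAP65-3 bundles the opposing microtubules at the phragmoplast midline, EDE1 is a microtubule-associated protein of the mitotic arrays, RUNKEL is a kinase-like protein of phragmoplast microtubules, and TANGLED marks the cortical site at which the plate will join the wall. Genes transcribed at the G2-to-M transition in plants often carry MSA elements, which MYB3R factors bind through the core AACGG.

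The proximal promoters were searched for that core because it is the best known sequence feature of KNOLLE and other mitotic genes. The window ran from 250 bases before to 50 bases after the annotated start in RefSeq's TAIR10.1 annotation, on both strands. AACGG occurred at least once in 24.7% of the 27443 promoters of protein-coding genes searched, and at least 2 times in 4.89%. KNOLLE had 3 matches, at 12 bases before the start on the gene's strand, at 13 bases after it on the opposite strand and at 37 bases after it on the gene's strand. The match on the opposite strand lay within a match to the full MSA consensus, which 1.24% of promoters hold, so these 2 overlap. MAP65-3 also had 3 matches, at 125 bases before the start on the opposite strand, at 99 before on the gene's strand and at 35 after. EDE1 had 1 match at 38 bases after the start and SNAP33 had 1 at 40 bases before it, both on the opposite strand. In the windows of KEULE, RUNKEL, TANGLED and NPSN11 these letters did not occur. The 250 bases before the start are printed for the genes with a match there, and for RUNKEL, the gene with the largest change, as a window without one; capitals mark AACGG or, for the opposite strand, its complement CCGTT:
KNOLLE (chr1:2711001-2711250, minus strand): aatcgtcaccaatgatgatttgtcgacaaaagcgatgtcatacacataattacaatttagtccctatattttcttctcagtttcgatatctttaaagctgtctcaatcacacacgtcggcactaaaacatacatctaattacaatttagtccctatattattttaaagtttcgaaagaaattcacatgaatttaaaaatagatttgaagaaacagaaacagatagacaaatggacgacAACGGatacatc
MAP65-3 (chr5:20964538-20964787, minus strand): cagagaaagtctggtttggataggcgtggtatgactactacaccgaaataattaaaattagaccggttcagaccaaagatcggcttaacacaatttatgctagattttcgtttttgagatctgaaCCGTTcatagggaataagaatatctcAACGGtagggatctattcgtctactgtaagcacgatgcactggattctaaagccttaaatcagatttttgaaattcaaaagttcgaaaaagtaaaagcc
SNAP33 (chr5:24622998-24623247, plus strand): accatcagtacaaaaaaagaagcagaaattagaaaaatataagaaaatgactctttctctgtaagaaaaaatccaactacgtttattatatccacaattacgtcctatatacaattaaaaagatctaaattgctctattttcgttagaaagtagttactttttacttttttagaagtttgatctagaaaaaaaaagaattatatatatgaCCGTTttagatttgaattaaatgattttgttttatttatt
RUNKEL (chr5:6240917-6241166, minus strand): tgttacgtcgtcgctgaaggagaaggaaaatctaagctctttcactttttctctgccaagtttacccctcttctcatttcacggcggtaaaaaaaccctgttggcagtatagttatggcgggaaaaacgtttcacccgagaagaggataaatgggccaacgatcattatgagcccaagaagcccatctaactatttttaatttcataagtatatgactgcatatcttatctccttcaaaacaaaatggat

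The sizes to which FPKM was scaled were inferred from the spacing of the lowest FPKM values. They came to about 32800000 and 27400000 fragments in WT and about 28100000 and 25900000 in SCL28-OX. These sizes need not equal the fragments sequenced. FPKM is the number of fragments of a gene per kilobase of transcript, scaled to library size. Taking the annotated transcript length, the fragments behind 1 value of the 8 genes ranged from 143 for EDE1 to 3730 for KEULE. Counting alone then gives an error of up to 8.4% for EDE1 and 2.4% for KNOLLE. With only the part of the transcript inside the deposited interval (1745 of 1999 bases for EDE1), fragments would be fewer and these errors larger. SCL28 stood at 6.78 and 7.57 FPKM in WT and at 2378 and 2300 FPKM in SCL28-OX. The interval deposited for SCL28 is its coding region, so fragments of the transgene and of the gene itself are not told apart. All 6 root tip markers (PLT1, PLT2, SHR, SCR, WOX5 and SMB) were detected in every library, between 2.2 and 28.1 FPKM. Across all tested genes the difference between genotypes rose with transcript length, with a Spearman correlation of 0.677 over 17802 genes that share the same 4 libraries. Between the 2 WT libraries the same correlation was -0.042, and between the 2 SCL28-OX libraries it was 0.0065. Each of the 8 genes is therefore given below as deposited and after correction for a smooth trend of each library on transcript length.

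In the uncorrected comparison 6 of the 8 genes differed between genotypes. KEULE, MAP65-3, EDE1 and RUNKEL were higher in SCL28-OX and KNOLLE and NPSN11 were lower, while SNAP33 and TANGLED did not pass the test. The test was limma on log2(FPKM + 1), two-sided, with Benjamini-Hochberg adjustment over all tested genes and a threshold of 0.05. By the same test 32.7% of all genes were higher and 33.8% were lower, 66.5% in either direction, so that 6 of 8 is close to the background. With the length correction 0 of the 8 genes were higher and 3 were lower, KNOLLE, NPSN11 and TANGLED, beside 21.2% of all genes higher and 25.8% lower, 47% in either direction. With length and GC content corrected together, 2 were higher (KEULE and SNAP33) and 1 was lower (KNOLLE), beside 19.2% and 23.9% of all genes and 43.2% in either direction. With the part of the transcript inside the deposited interval as the length, 2 of the 8 were lower (KNOLLE and NPSN11) and 0 higher, beside 46.5% of all genes in either direction, 20.3% higher and 26.1% lower. The median log2 change of the 8 genes was 0.088 uncorrected and -0.0099 after the length correction, and that of all tested genes was -0.0079 and -0.027. In 7 of the 8 genes the FPKM values of the groups did not overlap, as in 83.6% of all tested genes. TANGLED is the exception.

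**Figure D1:**
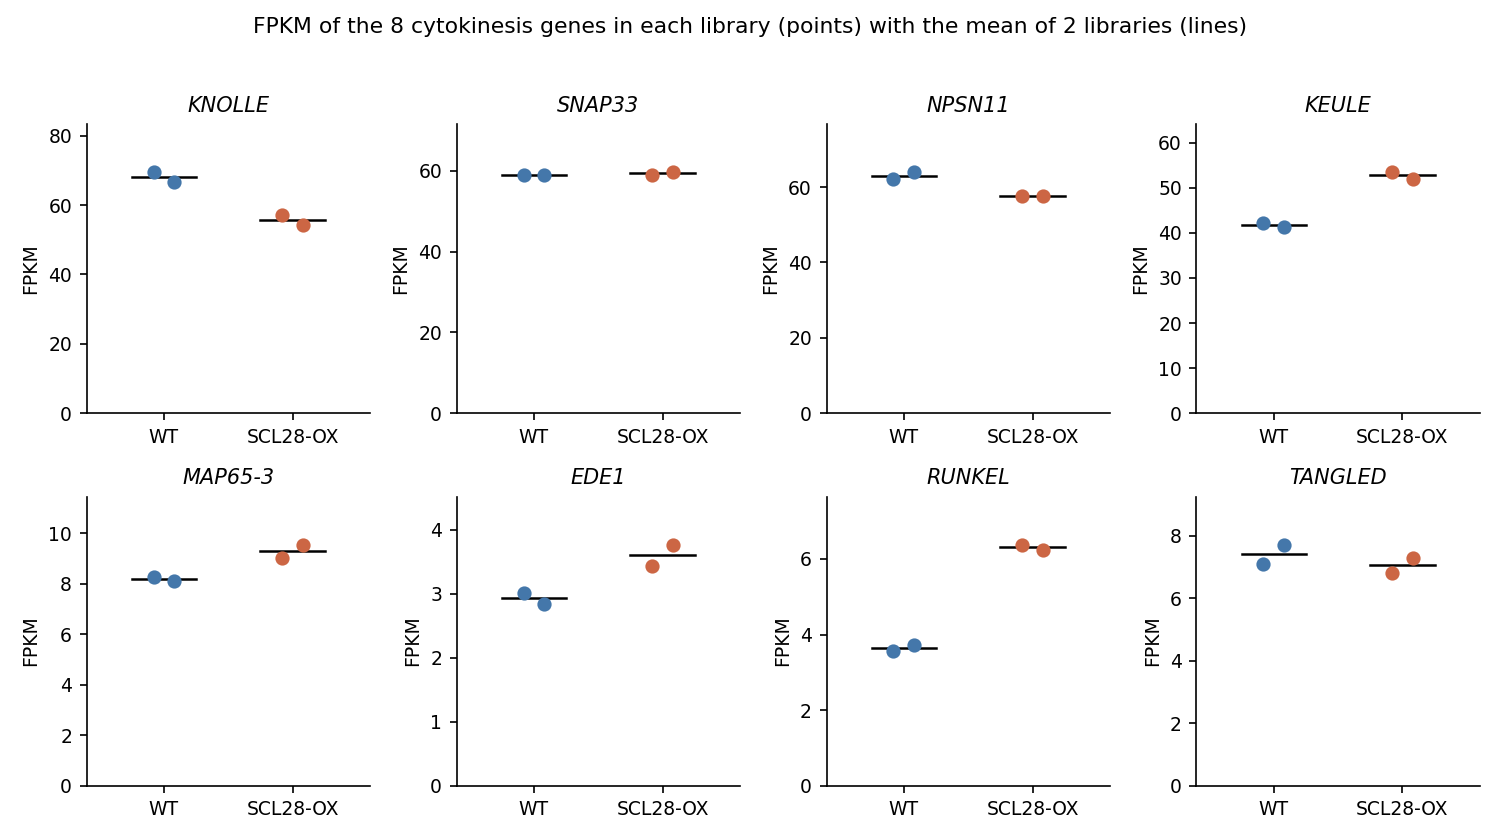
FPKM (y axis, from 0) of each of the 8 genes in the 2 WT (blue) and 2 SCL28-OX (orange) libraries, with points for libraries and lines for means. KNOLLE and NPSN11 lie lower in SCL28-OX, KEULE, MAP65-3, EDE1 and RUNKEL lie higher, SNAP33 stays within 58.9 to 59.6 FPKM, and the TANGLED points of the genotypes overlap.

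KNOLLE, the syntaxin, was listed at chr1:2709632-2710912 in the deposited table on TAIR10 and measured at 69.4 and 66.6 FPKM in WT and at 57.0 and 54.3 FPKM in SCL28-OX. Both SCL28-OX libraries were below both WT libraries, and the means were 68.0 ± 2.04 and 55.7 ± 1.93 FPKM (SD, n = 2 each). The ratio of the means was 0.819, and the log2 change was -0.28 ± 0.037 (SE), with an adjusted p of 0.000296 in limma. KNOLLE has a short transcript of 1386 bases, and the length trend alone came to -0.12 at that length. Corrected for length its log2 change was -0.16 with a limma adjusted p of 0.00781, and corrected for length and GC content together it was -0.16 with 0.00813. KNOLLE was called lower under every one of the 17 alternatives planned, with log2 changes from -0.32 to -0.16. It kept the call when length was counted inside the deposited interval only, which is shorter at 1191 bases (log2 change -0.15, limma adjusted p 0.0132). When 1 library was left out together with the length correction, the call was lost without WT replicate 1 (log2 change -0.14, limma adjusted p 0.0557). When tested genes were sorted by length into 10 bins, 25.8% of the 1780 genes in the bin of KNOLLE were as low or lower.

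Markers of dividing cells were also read, and they differed in both directions. Of 12 B-type cyclin and B-type CDK genes, which act at the entry into mitosis, 6 were lower, 2 were higher and 4 did not pass, beside 33.8% of all genes lower and 32.7% higher. With length corrected 5 were lower and 1 higher, beside 25.8% and 21.2% of all genes, and with length and GC 3 were lower and 1 higher, beside 23.9% and 19.2%. Their summed level was 239 and 233 FPKM in WT and 212 and 219 FPKM in SCL28-OX, and none was at 0. The largest uncorrected fall among them was that of CDKB2;2, from 26.9 and 26.2 to 20.0 and 20.9 FPKM. CYCB1;1 went from 13.8 and 14.1 to 10.4 and 12.0 FPKM. Both were still called lower with length corrected, CDKB2;2 at a log2 change of -0.25 and CYCB1;1 at -0.26. CYCB1;3 (log2 change 0.16) and CYCB1;4 (0.16) were the 2 that rose uncorrected. With length corrected CYCB1;3 was still higher (0.19) and CYCB1;4 did not pass (0.14, limma adjusted p 0.0726). The part of these 12 genes in the lower KNOLLE level was not tested. In bulk tissue, fewer cells of a type and less RNA per cell cannot be told apart.

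SNAP33, a Q-SNARE that also acts at the plasma membrane of non-dividing cells, was listed at chr5:24623299-24626923 and measured at 58.9 and 58.9 FPKM in WT and at 59.0 and 59.6 FPKM in SCL28-OX. The 4 libraries lay close together and the log2 change was 0.01, with a 95% interval from -0.055 to 0.077 (limma adjusted p 0.758). Its call depended on the correction: it did not pass with length alone (0.079, limma adjusted p 0.0577) and was higher with length and GC (0.14, limma adjusted p 0.00555). The deposited interval of SNAP33 overlaps that of its neighbour AT5G61220, and reads of the pair may not have been told apart.

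NPSN11, the Q-SNARE of the other KNOLLE complex, was listed at chr2:14830626-14833319 and measured at 62.1 and 63.9 FPKM in WT and at 57.6 and 57.5 FPKM in SCL28-OX. Both SCL28-OX libraries were lower and the ratio of the means was 0.914. Its log2 change came to -0.13 ± 0.030 (SE), limma adjusted p 0.00613, and with the length correction it was -0.11 with 0.0176. With GC content in the correction it was -0.031 and did not pass (limma adjusted p 0.444).

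KEULE, the Sec1/Munc18 protein, differed in the opposite direction from the syntaxin it binds in the uncorrected values. It was listed at chr1:4200876-4208951 and measured at 42.1 and 41.3 FPKM in WT and at 53.4 and 52.0 FPKM in SCL28-OX, with both SCL28-OX libraries higher and a ratio of the means of 1.26. The log2 change was 0.33 ± 0.032 (SE), limma adjusted p 6.77e-05. KEULE has a transcript of 2651 bases, at which the length trend came to 0.24. After the length correction its log2 change was 0.087 and no longer passed (limma adjusted p 0.0628), and with length and GC it was 0.14 and passed (limma adjusted p 0.0117). The deposited interval of KEULE runs on over the neighbouring gene PHR1 (AT1G12370), a photolyase gene, so that its value may hold reads of both.

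The balance within each library does not depend on scaling between libraries. The ratio of KNOLLE to KEULE FPKM was 1.65 and 1.61 in the WT libraries and 1.07 and 1.04 in the SCL28-OX libraries. KNOLLE to SNAP33 went from 1.18 and 1.13 to 0.966 and 0.911, and KEULE to SNAP33 from 0.716 and 0.701 to 0.905 and 0.873. None of these groups of ratios overlapped. A ratio of this kind shows unequal change in FPKM of a pair of genes and does not say which of them moved. The genes of each pair differ in length, and the ratios are not corrected for it. Corrected for length, the log2 change was -0.16 for KNOLLE, 0.087 for KEULE and 0.079 for SNAP33. With GC included the values were -0.16, 0.14 and 0.14. In WT the order of levels was KNOLLE, NPSN11, SNAP33 and KEULE, each separated from the next in both libraries. In SCL28-OX it was SNAP33, NPSN11, KNOLLE and KEULE, with no overlap between neighbours; the nearest values of KNOLLE and NPSN11, and of KNOLLE and KEULE, lay closer together than the 2 KNOLLE values. The 4 genes together summed to 233 and 231 FPKM in WT and to 227 and 224 FPKM in SCL28-OX.

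The remaining subunits of the KNOLLE complexes are the Q-SNARE SYP71 and the R-SNAREs VAMP721 and VAMP722, which are also used in general secretion. VAMP721 was measured at 169 and 163 FPKM in WT and at 129 and 133 FPKM in SCL28-OX. SYP71 was measured at 141 and 138 FPKM in WT and at 118 and 121 FPKM in SCL28-OX. The deposited interval of SYP71 is shared with another gene line, so that its value may hold reads of both. VAMP722 stood at 131 and 129 FPKM in WT and at 114 and 113 FPKM in SCL28-OX. Each was lower in both SCL28-OX libraries, and the limma adjusted p was 2.77e-05 for VAMP721, 0.000155 for SYP71 and 0.000314 for VAMP722. Of the 6 SNAREs of the 2 complexes, a grouping made after the values were seen, 5 were thus lower and SNAP33 did not pass, beside 33.8% of all genes lower. The same 5 were lower after the length correction, beside 25.8% of all genes. With GC included, KNOLLE, SYP71 and VAMP721 were lower and SNAP33 was higher, beside 23.9% of all genes lower and 19.2% higher. With length counted inside the deposited interval 4 were lower, all of the 5 but VAMP722, beside 26.1% of all genes. All 6 have short transcripts, from 1276 to 1697 bases. Their summed level was 631 and 619 FPKM in WT and 535 and 538 FPKM in SCL28-OX.

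**Figure D2:**
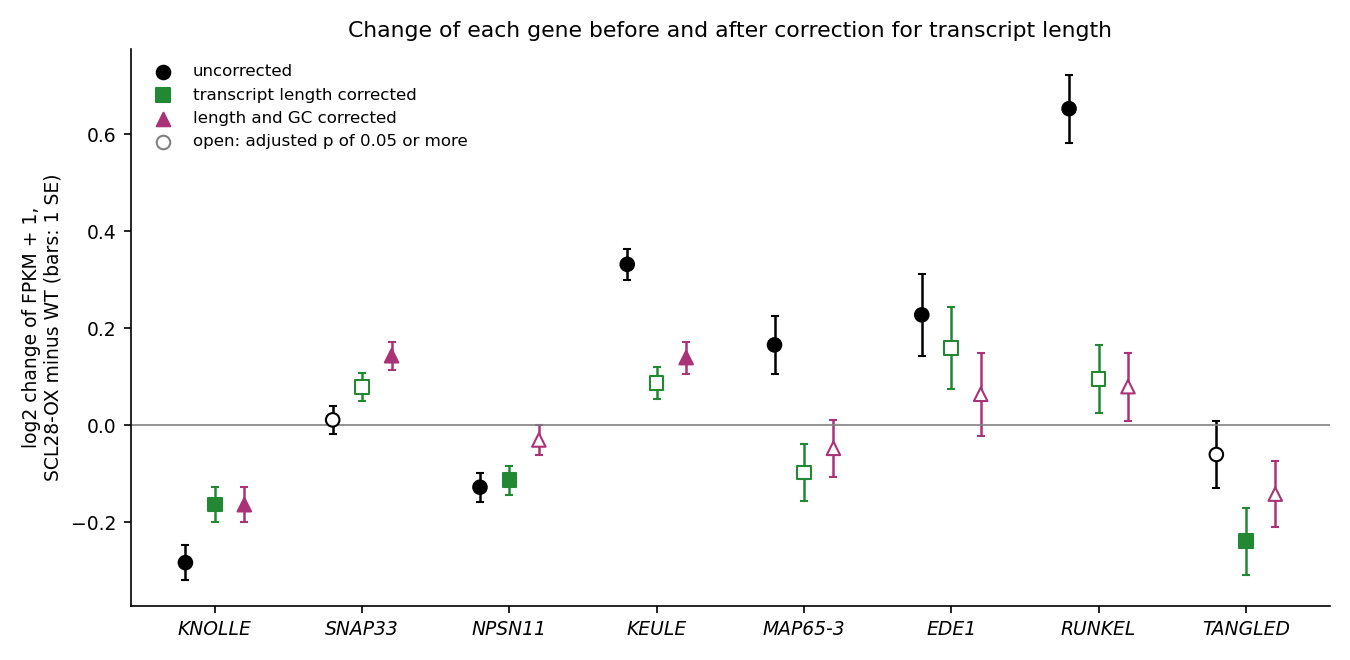
Log2 change of FPKM + 1 (y axis, SCL28-OX minus WT, bars 1 SE, 2 libraries per genotype) of each gene uncorrected, corrected for transcript length, and corrected for length and GC content; filled symbols have an adjusted p under 0.05. KNOLLE is filled and below 0 in all 3, and the RUNKEL value moves from 0.65 to 0.095 with the length correction.

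RUNKEL had the largest change of the 8 genes. It was listed at chr5:6235096-6240733 and measured at 3.57 and 3.72 FPKM in WT and at 6.38 and 6.24 FPKM in SCL28-OX, with both SCL28-OX libraries above both WT libraries. The ratio of the means was 1.73 and the log2 change 0.65 ± 0.070 (SE), limma adjusted p 0.000114. RUNKEL also has the longest transcript of the 8, at 4555 bases, and the length trend at that length came to 0.56. After the length correction its log2 change was 0.095, with a 95% interval from -0.068 to 0.26 (limma adjusted p 0.297). In the bin of the longest transcripts, 22.5% of 1781 genes were as high or higher. The pseudocount of 1 FPKM understates the change of genes at this level.

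MAP65-3 was listed at chr5:20960911-20964484 and measured at 8.26 and 8.09 FPKM in WT and at 9.04 and 9.55 FPKM in SCL28-OX. The groups did not overlap, and the log2 change came to 0.17 ± 0.059 (SE), limma adjusted p 0.0391. MAP65-3 is 2735 bases long, and its direction turned with the length correction, to -0.098 (limma adjusted p 0.207), and with length and GC, to -0.048 (limma adjusted p 0.540). The uncorrected call was also lost without any filter, under quantile normalization, and without WT replicate 1, WT replicate 2 or SCL28-OX replicate 2.

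EDE1, the lowest of the 8 genes, was listed at chr2:18272191-18274497 and measured at 3.02 and 2.84 FPKM in WT and at 3.44 and 3.77 FPKM in SCL28-OX. The SCL28-OX libraries were the higher ones, and the log2 change came to 0.23 ± 0.085 (SE), limma adjusted p 0.0452. It was 0.16 after the length correction (limma adjusted p 0.160) and 0.063 with length and GC (limma adjusted p 0.582). The call did not pass without any filter, under quantile normalization, or without WT replicate 1, WT replicate 2 or SCL28-OX replicate 2.

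TANGLED was listed at chr3:1518882-1521494 and measured at 7.09 and 7.71 FPKM in WT and at 6.81 and 7.29 FPKM in SCL28-OX. The groups overlap, and the uncorrected log2 change was -0.06, with a 95% interval from -0.22 to 0.10 (limma adjusted p 0.465). Genes of its length of 2390 bases rose on the whole, with a trend of 0.18, so that the length-corrected log2 change was -0.24 (limma adjusted p 0.0242). The call rested on the annotated length. With the 1950 bases inside the deposited interval the log2 change was -0.17 and did not pass (limma adjusted p 0.0775), nor did it with length and GC (-0.14, limma adjusted p 0.131). Leaving out WT replicate 2 (-0.19, limma adjusted p 0.135) also ended the length-corrected call, as did leaving out SCL28-OX replicate 1 (-0.20, limma adjusted p 0.0896). In its length bin 15.3% of 1780 genes were as low or lower.

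The 4 microtubule and division site genes were far lower than the 4 membrane fusion genes, with WT means of 2.93 to 8.17 FPKM against 41.7 to 68.0 FPKM. Membrane fusion genes made up 91.3% of the summed FPKM of the 8 genes in WT. The order among the low genes was MAP65-3, TANGLED, RUNKEL and EDE1 in both genotypes. The values of neighbours in that order did not overlap. The nearest values of MAP65-3 and TANGLED in WT, and of TANGLED and RUNKEL in SCL28-OX, lay closer together than the 2 TANGLED values of the same genotype. The ratio of RUNKEL to EDE1 was 1.18 and 1.31 in WT and 1.86 and 1.66 in SCL28-OX. This ratio is not corrected for length, and the transcripts are 4555 and 1999 bases long. Corrected for length, the log2 change was 0.095 for RUNKEL and 0.16 for EDE1, and neither was called. In the authors' deposited table, 4 of the 8 genes had a q-value under 0.05, where 58.2% of 19442 genes tested there did: KNOLLE, KEULE and RUNKEL at 0.000137 and NPSN11 at 0.000391. In the authors' deposited table MAP65-3 (0.134) and EDE1 (0.0841), which limma called, were above 0.05.

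**Figure D3:**
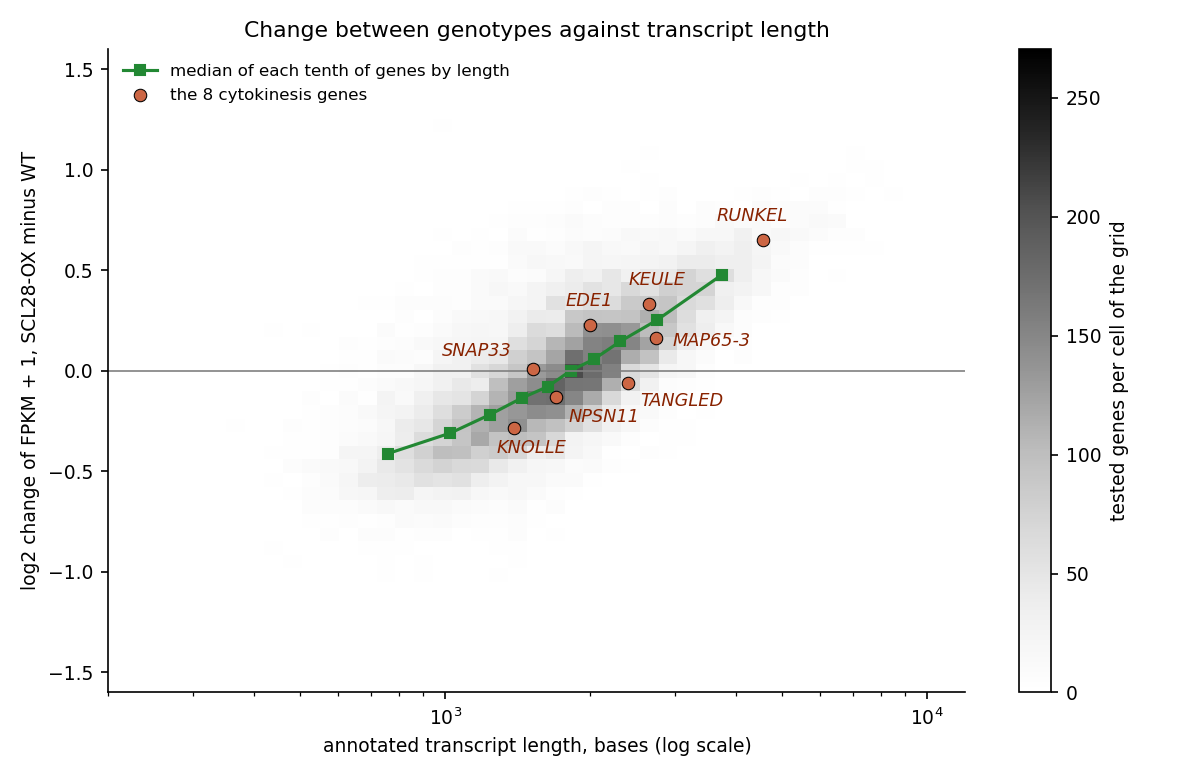
Log2 change of FPKM + 1 (y axis) against annotated transcript length in bases (x axis, log scale) for the tested genes within the plotted range, as a grey grid, with the median of each of 10 bins of genes by length (green) and the 8 genes (orange). The medians rise from -0.41 in the shortest bin to 0.48 in the longest; KNOLLE, NPSN11, MAP65-3 and TANGLED lie below the line of medians, KEULE, EDE1 and SNAP33 lie above it, and RUNKEL is longer than its last point.

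Of 16 close relatives of the 8 genes 12 were tested, and 7 of these were higher, 1 was lower and 4 did not pass; after the length correction none was higher and 1, MAP65-7, was lower. Their median log2 change was 0.21 uncorrected and 0.028 corrected. Among all genes 32.7% were higher and 33.8% lower uncorrected, and 21.2% and 25.8% after the length correction. AUG8, the relative of EDE1 in the augmin complex, rose from 3.61 and 3.27 to 5.21 and 5.01 FPKM, a log2 change of 0.46 uncorrected and 0.14, no longer called, with the length correction. MAP65-6 rose from 43.6 and 42.9 to 58.5 and 60.2 FPKM, a log2 change of 0.45. The NPSN11 relative NPSN13 fell from 65.4 and 65.3 to 57.3 and 58.6 FPKM, a log2 change of -0.17. MAP65-6 (0.059) and NPSN13 (-0.071) did not pass after the length correction, although MAP65-6 did with GC included (0.23) and both did with length inside the deposited interval (0.21 and -0.10). The KEULE relative SEC1B stood at 5.96 and 5.83 FPKM in WT and at 7.34 and 7.03 FPKM in SCL28-OX, far below KEULE. Its log2 change was 0.25 uncorrected and 0.06, no longer called, with the length correction. SYP112, the syntaxin nearest to KNOLLE, was too low to be tested, at 0.366 to 1.05 FPKM, as were SNAP29 and MAP65-9, and SNAP30 was listed at 0 in all 4 libraries.

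Of 11 vesicle fusion and tethering genes 8 were higher, beside 32.7% of all genes, and 3 were lower, beside 33.8%. The 3 lower ones were the SNAREs SYP71, VAMP721 and VAMP722 named above. Once length was corrected 1 was higher and 4 were lower, beside 21.2% and 25.8%. The TRAPPII tethering subunits TRS120, from 8.63 and 8.29 to 13.7 and 13.8 FPKM, and CLUB, from 15.4 and 14.7 to 23.3 and 24.5 FPKM, had uncorrected log2 changes of 0.64 and 0.63. With the length correction TRS120 was at 0.15 (limma adjusted p 0.0539) and CLUB at 0.12 (limma adjusted p 0.0829), neither of which passed. PATL2, a plate-associated lipid-binding protein, was still called higher with the length correction (0.13) but not with GC included, where its log2 change was -0.031. The exocyst gene EXO84B turned from 0.21 to -0.11 with the length correction and was called lower.

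Among 17 phragmoplast genes 7 were higher, 7 were lower and 3 did not pass, beside 32.7% of all genes higher and 33.8% lower. Once length was corrected 1 was higher and 4 were lower, beside 21.2% and 25.8%. MOR1, a microtubule polymerase, had the largest rise, from 10.1 and 10.0 to 21.0 and 20.3 FPKM (log2 change 0.97), and was still called at a log2 change of 0.20 after the correction (limma adjusted p 0.0109). The kinase TIO, like RUNKEL a long transcript, was at 0.63 uncorrected and 0.05 corrected. The augmin subunit AUG2 (-0.30) and the Aurora kinase AUR2 (-0.29) fell, and both were lower after the length correction too. Neither passed when length was counted inside the deposited interval (AUG2 -0.16, limma adjusted p 0.0557; AUR2 -0.15, limma adjusted p 0.0556).

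Of 8 division site genes 5 were higher, 2 were lower and 1 did not pass, beside 32.7% of all genes higher and 33.8% lower. Corrected for length, the calls in each direction numbered 4 and 1, beside 21.2% and 25.8%. With GC included they numbered 2 and 1, beside 19.2% and 23.9%. With length inside the deposited interval they numbered 3 and 1, beside 20.3% and 26.1%. The microtubule-associated AIR9 was at 0.86 uncorrected and 0.16 corrected, and passed both times. TON1A (-0.26) and TON1B (-0.25), which are needed for the preprophase band, were lower uncorrected and did not pass corrected. These genes share the division site with TANGLED, which was not called uncorrected.

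All 8 genes of cell plate membrane and wall were higher uncorrected, beside 32.7% of all genes. Their median length was 3421.5 bases, with a range from 2398 to 6536 bases. They thus lay in bins 8, 9 and 10 by length, where the median log2 changes were 0.15, 0.25 and 0.48. After the length correction 2 were higher, the callose synthase gene GSL8 (0.16) and the cellulase gene KOR1 (0.13), beside 21.2% of all genes. Only the KOR1 call held with length inside the deposited interval, where GSL8 was at 0.12 (limma adjusted p 0.0595). GSL8 went from 12.2 and 11.8 to 23.1 and 22.6 FPKM, an uncorrected log2 change of 0.88. The deposited interval of GSL8 is shared with another gene line, so that its value may hold reads of both. CALS1 went from 30.0 and 29.3 to 50.2 and 51.8 FPKM, an uncorrected log2 change of 0.76. After the correction CALS1 was at 0.018 and did not pass. Over the 5 lists together, 56 of 60 genes were tested: 35 were higher, 13 lower and 8 not passed, and after the length correction 8 were higher, 10 lower and 38 not passed. The median log2 change of the 56 was 0.21 uncorrected and 0.05 corrected. Shares of all genes were 32.7% higher and 33.8% lower uncorrected, and 21.2% and 25.8% after the length correction.

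**Figure D4:**
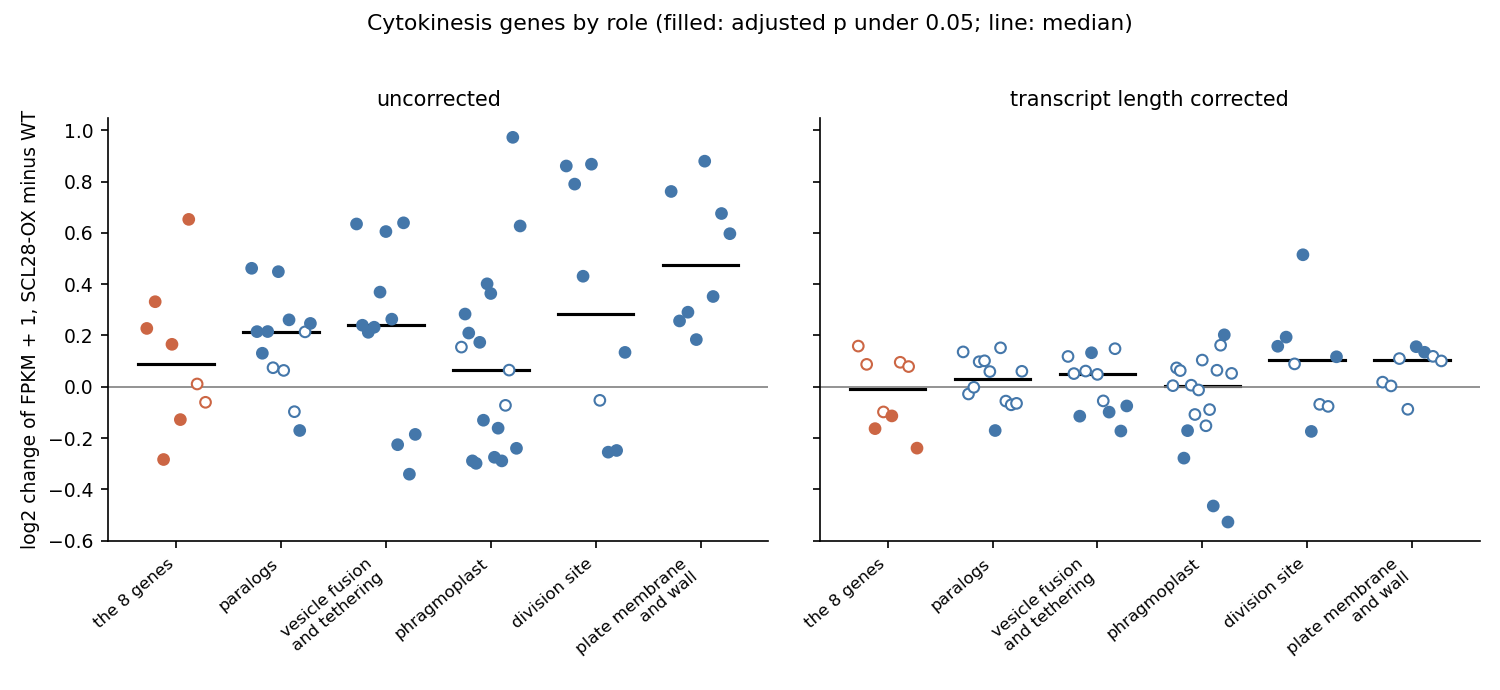
Log2 change of FPKM + 1 (y axis, SCL28-OX minus WT) of the tested genes of each cytokinesis list, uncorrected (left) and length corrected (right); 1 point is 1 gene, filled at an adjusted p under 0.05, and lines are medians. The medians of the lists lie between 0.065 and 0.47 on the left and between 0.0041 and 0.11 on the right, and the 8 genes go from 0.088 to -0.0099.

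The genes whose profile over the 4 libraries was nearest to that of KNOLLE, by the Euclidean distance of mean-centred log2(FPKM + 1), were MYB51, RPA2 and AT1G76520. MYB51, a MYB factor of indole glucosinolate synthesis, stood at 5.56 and 5.27 FPKM in WT and at 4.34 and 4.13 FPKM in SCL28-OX (distance 0.012). RPA2, a subunit of the single-strand DNA-binding replication protein A, stood at 33.1 and 31.5 and at 27.3 and 25.7 FPKM (distance 0.014). With 4 libraries in 2 groups, likeness of this kind is a description of the same small shift.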

How the data were processed

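RNA-seq libraries of WT and SCL28-OX root tips were made with a stranded mRNA kit, per the labels' protocols. The submitters' processing notes list TopHat2 2.0.13, Cuffdiff 2.2.0 and CASAVA 1.8.2 and the TAIR10 build; strand use in counting is not stated in them. The authors deposited FPKM per gene and library, group mean FPKM, and, for their own comparison, a p-value, a q-value and a test score, per the file headers. The deposited score was not used. Of 26883 lines, 60 were left out because their columns had shifted, and 1 is not analysed here.

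The 8 genes, the lists around them and the rule for named genes (SCL28, up to 2 rises and 2 falls per list, and the 3 profiles nearest to KNOLLE) were chosen with earlier results of these data known; VAMP722, SEC1B, MAP65-7, PATL2, EXO84B and KOR1 were added after their values were seen. For the division site list, 1 of the 2 rises is not reported here. Lines averaging 1 FPKM or more were fitted without covariates on log2(FPKM + 1), using limma 3.58.1 (lmFit, eBayes with trend; R 4.3.3), and tested two-sided, with Benjamini-Hochberg adjustment over 18087 genes. The length correction subtracts from each library a natural spline with 5 degrees of freedom on the annotated length of the longest TAIR10.1 transcript; a second one adds GC content. Both were planned, with other pseudocounts, filters, scalings and variance models, a block on the replicate number, and leaving out each library. The correction on the length inside the deposited interval, and each library left out with the length correction, were added after the data were seen. The files used here hold no counts, so no count model was used. The fit and the depth search were tested on simulated data.

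Depth, as the size to which FPKM was scaled, was inferred from the spacing of low FPKM values. Of these values 93.7% to 94.8% were whole fragments within 0.1. Over 446 genes in WT and 439 in SCL28-OX, the libraries of a genotype differed slightly more than counting noise. Chi-square per degree of freedom was 1.16 in WT and 1.24 in SCL28-OX (chi-square test, p = 0.0102 and 0.000512). Only single-transcript genes whose deposited ends equal the annotation, with enough fragments for the test, were used. The libraries were kept as 2 replicates. Counting errors cover counting only.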

Additional observations from a re-analysis of the deposited data

How the results depend on the processing

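KNOLLE was called lower under all 17 settings planned. With 1 library left out KNOLLE was -0.32 to -0.25, and -0.20 to -0.13 with the length correction too. RUNKEL was 0.095 with length, 0.079 with length and GC, 0.095 with the replicate block and length, 0.086 with length inside the deposited interval, and, with a library left out, 0.63 to 0.68, or 0.074 to 0.12 with length. KEULE was 0.087, not called, with length and with block and length, 0.039 inside the interval and, with a library left out, 0.31 to 0.35, or 0.067 to 0.11 with length. MAP65-3 turned to -0.098 with length and with block and length, -0.048 with GC, -0.11 inside the interval and -0.13 to -0.064 with length and a library left out; it was uncalled at 0.17 without a filter, 0.082 with quantile normalization and 0.17 with the replicate block, and over libraries left out was 0.13 to 0.20, called only without SCL28-OX replicate 1. EDE1 was uncalled at 0.23 without a filter, 0.18 with quantile normalization, 0.23 with the block, 0.16 with length and with block and length, 0.063 with GC, 0.18 inside the interval, and 0.11 to 0.21 with length and a library left out; over libraries left out alone it was 0.18 to 0.28, called only without SCL28-OX replicate 1. SNAP33 passed at 0.092 with quantile normalization and 0.14 with GC. TANGLED passed at -0.24 with length and with block and length, and was, with a library left out, -0.11 to -0.0077, or -0.29 to -0.19 with length, uncalled without WT replicate 2 or SCL28-OX replicate 1. NPSN11 was uncalled at -0.045 with quantile normalization, -0.031 with GC and without WT replicate 2 with length; with a library left out it was -0.15 to -0.11, or -0.14 to -0.093 with length. Of the 8 genes, 2 were higher without a filter, at a minimum mean of 5 FPKM, with the block, and with GC, 2 to 4 with a library left out, and 0 with length, with block and length, and inside the interval; 1 was lower with quantile normalization and with GC. All genes called higher numbered 3773 with length, 3426 with GC, 3611 with block and length and 3621 inside the interval; in the other lists they numbered 8, 7, 8 and 7, and genes called lower numbered 8 with GC and with block and length. With GC, among other genes, NPSN13 (0.032), TRS120 (-0.019), PATL2 (-0.031), EXO84B (-0.18) and MAP65-7 (-0.088) had the opposite sign. At a minimum mean of 5 FPKM EDE1 and RUNKEL have no value, nor have KEULE and SNAP33 without lines that share an interval. The labels pair no libraries: the replicate 1 minus 2 difference of the genotypes correlated at 0.122 over 18087 genes. With 2 libraries per genotype each call rests on 2 values a side, and the fragment number limits EDE1 most.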

Other observations

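Marker genes of tissues other than the root tip differed between the genotypes as well. Of 8 nuclear photosynthesis genes, taken as shoot markers, 7 were tested and LHCB1.1 was at or near 0 in every library. Uncorrected, 5 of the 7 were higher in SCL28-OX and none lower, beside 32.7% and 33.8% of all genes. After the length correction all 7 were higher, beside 21.2%. With GC included 5 were higher and 0 lower, beside 19.2% and 23.9% of all genes. The median log2 change of the 7 was 0.66 with length corrected and 0.35 with GC included. The summed level of the 8 was 190 and 193 FPKM in WT and 263 and 262 FPKM in SCL28-OX. RBCS1A, a small subunit of Rubisco, went from 19.5 and 19.0 to 39.7 and 38.9 FPKM (log2 change 0.99) and PSAD1, a photosystem I subunit, from 14.9 and 14.5 to 25.7 and 28.2 FPKM (0.83). Both were at least as far apart after the length correction, at 1.16 and 1.06.

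Of 6 genes of root hair cells, 3 were higher and 3 were lower uncorrected, beside 32.7% and 33.8% of all genes. After the length correction 3 were higher and 1 was lower, beside 21.2% and 25.8%. With GC included 3 were higher and 0 lower, beside 19.2% and 23.9%. The 6 together summed to 341 and 349 FPKM in WT and to 491 and 487 FPKM in SCL28-OX. The cell wall protein gene PRP3 made most of that rise, from 73.6 and 78.9 to 221 and 216 FPKM (log2 change 1.51). COBL9 went from 17.7 and 19.0 to 30.9 and 29.9 FPKM (0.70). With length corrected PRP3 was at 1.70 and COBL9 at 0.56, both still called higher. RSL4, a transcription factor of hair growth, fell from 26.6 and 27.0 to 21.6 and 22.1 FPKM (-0.28). EXPA18 fell from 109 and 112 to 97.7 and 101 FPKM (-0.16). With length corrected RSL4 was still lower (-0.14), while EXPA18 was at 0.023 and did not pass (limma adjusted p 0.538). With GC included neither passed (RSL4 -0.049, limma adjusted p 0.339, and EXPA18 -0.036, limma adjusted p 0.349). Among the root tip markers SCR rose from 18.8 and 20.4 to 27.9 and 28.1 FPKM (0.50). PLT1 fell from 7.61 and 8.0 to 6.41 and 6.23 FPKM (-0.27), and the other 4 did not pass uncorrected. With length corrected SCR was at 0.22 and PLT1 at -0.44, both still called. With GC included SCR did not pass (0.13, limma adjusted p 0.0633) and PLT1 was lower (-0.51). The part of all these markers in the values of KNOLLE and the other cytokinesis genes was not tested.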
